A study of Mus musculus with 10 samples.

Results

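Progenitor and differentiation regulators of spermatogonia are described here through 7 genes, Neurog3, Sox3, Kit, Sohlh1, Sohlh2, Dmrt1 and Dmrtb1. They were chosen by name, as every non-control probe whose gene name in the scanner files is 1 of these symbols. This gave 8 probes, 2 of them for Neurog3, out of 55681 probes and 24263 gene symbols on the array. RNA was measured with Cy3 as the only dye on 10 Agilent whole mouse genome arrays, 1 for each sample. Germline stem (GS) cells, which are spermatogonia that self-renew in culture on FGF2 and GDNF, were deprived of both factors for 3 days and then kept for 24 hr with 100 ng/mL FGF5 (2 samples) or without it (2 samples). The labels call these cells C57BL/6 and wildtype, whereas the methods derive them from intercrossed C57BL/6 and ICR mice. GFRα1+ spermatogonia were sorted as GFP+ cells from testes of 2.5-month-old C57BL/6 mice that were WT (3 samples) or Fgf5-/- (3 samples), and mice of both genotypes carried the GFRα1-EGFP knock-in allele that marks the sorted cells. The text used here does not say whether a sorted sample pooled several mice, or whether equally numbered cultures were started together, so p-values measure the spread between these samples only.

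In the adult testis, GFRα1+ spermatogonia act as stem cells and give rise to progenitors that begin to express NGN3, the protein of Neurog3. Retinoic acid then turns progenitors into differentiating spermatogonia, which carry the receptor KIT and later enter meiosis. Neurog3 and Sox3 encode transcription factors of the progenitor state, Sohlh1 and Sohlh2 encode germ cell basic helix-loop-helix (bHLH) factors needed for differentiation, and Dmrt1 and Dmrtb1 encode factors with a DM domain that control the passage from mitosis to meiosis.

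The probes of Neurog3, Sox3 and Kit are shown by the middle 30 of their 60 bases, 5′ to 3′ as the array's design gives them. None of the letters is in capitals because no motif was sought.
Neurog3, brighter probe: agtgtgagttgcagggacggttcctgaagc
Neurog3, dimmer probe: ggagaactaggtaacaattcggaaactcca
Sox3: gttccaggttttttcaaagttttgttctta
Kit: ggccacaccattgagaattttgtcttggat
In mm9, the build of the array's annotation, the brighter Neurog3 probe (NM_009719) lies at chr10:61597452-61597511 on the plus strand, and the dimmer one (BC104326) starts 1401 bases before it on the same strand, at chr10:61596051-61596110. The Sox3 probe (NM_009237) lies on the minus strand at chrX:58144564-58144623, and the Kit probe (NM_001122733) on the plus strand at chr5:76052394-76052453. The single probes of Sohlh1 (chr2:25698525-25698584), Sohlh2 (chr3:55013524-55013583), Dmrt1 (chr19:25677922-25677981) and Dmrtb1 (chr4:107349326-107349385) complete the set. RefSeq gave the accessions of 7 of the 8 probes the same symbol as the files, and BC104326 was not matched, so its name rests on the files. Exons and UTRs were not assigned because no mm9 annotation was used here.

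Values below are log2 signals from which the 75th percentile of their array was subtracted, so that a difference of 1 is a 2-fold difference, and they compare a probe with itself across arrays and never 1 gene with another. The scanner software marked 62.9% to 65.2% of probes as well above background on cultured arrays and 55.3% to 65.9% on sorted ones. The sorted cells had all 14 markers of undifferentiated spermatogonia well above background, and the cultured cells 11 to 13 of them. Their levels differed, with 12 of the 14 lower in culture and 2 higher (limma, adjusted p under 0.05). This stands beside 25.7% and 41.9% of all tested probes. The median difference of the 14 was -2.46. Shisa6 was well above background on no cultured array, so its count among the lower genes rests on the filter. T and Eomes were well above background on 2 and 3 of 4 cultured arrays. The Fgf5 probe rose well above background in 0 WT samples and in 1 Fgf5-/- sample out of 3 each, so the genotype cannot be checked by it. Each material was hybridized on a slide of its own. Culture, the withdrawal of FGF2 and GDNF, strain as the methods give it, the GFRα1-EGFP allele, sorting, slide and scan all went with the material. They cannot be told apart in any value that sets cultured against sorted cells. In these bulk samples, fewer cells of a type and less RNA per cell cannot be told apart either.

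Kit was much lower in cultured than in sorted cells, the brighter Neurog3 probe and Sox3 were higher, and the other 4 genes did not pass the threshold. Across the array this was a broad contrast. An adjusted p of 0.05 in limma was passed by 67.7% of 35826 probes, 41.9% higher in culture and 25.7% lower. Of the 7 member probes that were well above background on all 10 arrays, 3 passed, 2 of them higher and 1 lower, so their count was no higher than that of probes in general. The dimmer Neurog3 probe entered the fit only through the cultured arrays and is left out of this count. The median difference over all tested probes was 0.26 in favor of culture, and between 0.12 and 0.39 under the other scalings, so each difference below is also given relative to it.

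**Figure D1:**
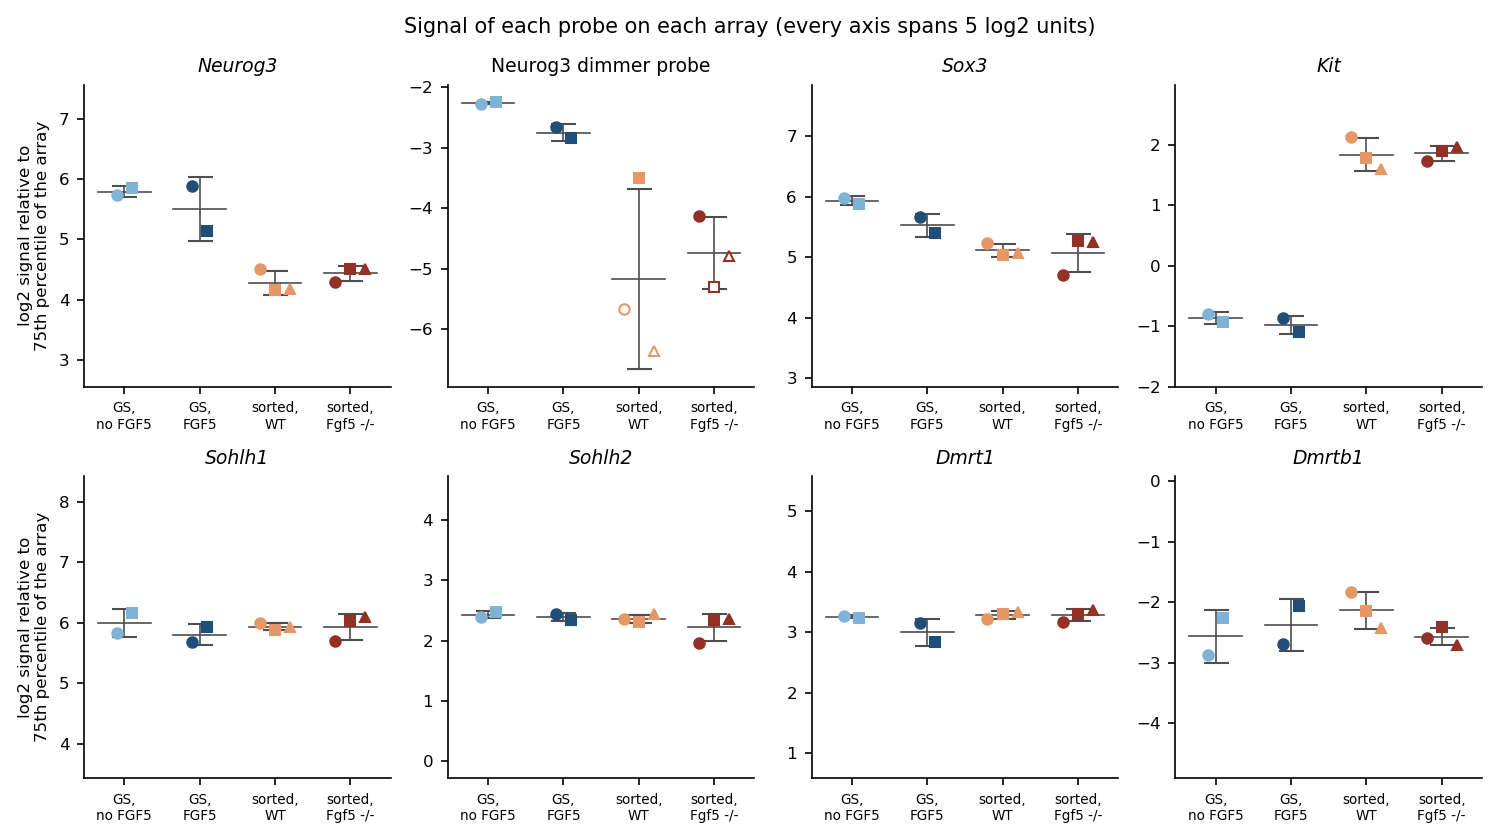
Log2 signal relative to each array's 75th percentile (y axis, 5 log2 units in every panel) of the 8 probes in the 4 groups (x axis). Circles, squares and triangles are replicates 1, 2 and 3, open symbols were not well above background, and lines and bars are the mean and SD. Kit lies between -1.09 and -0.80 in GS cells and between 1.60 and 2.13 in sorted cells, while Sohlh1, Sohlh2 and Dmrt1 keep nearly the same level in all groups.

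Neurog3 encodes the bHLH factor by which progenitors are recognized. Its brighter probe read 5.73 and 5.86 in GS cells without FGF5, 5.89 and 5.14 with FGF5, 4.51, 4.16 and 4.18 in WT sorted cells, and 4.30, 4.51 and 4.51 in Fgf5-/- sorted cells. Every cultured array was above every sorted array. The group means ran from 5.79 ± 0.09 (SD, n = 2) without FGF5 over 5.51 ± 0.53 (SD, n = 2) with FGF5 and 4.44 ± 0.12 (SD, n = 3) in Fgf5-/- to 4.28 ± 0.20 (SD, n = 3) in WT. Only the step between cultured and sorted groups in this order exceeded the spread of its neighbors. The signal was 2.44-fold higher in culture, a log2 difference of 1.29 with a standard error of 0.16 (limma, adjusted p = 0.00018). Relative to the median of all probes it was 1.03 higher, and 0.90 to 1.23 under the other scalings.

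The dimmer Neurog3 probe gave a weaker signal. It read -2.27 and -2.25 without FGF5 and -2.65 and -2.85 with FGF5, and was well above background on all 4 of these arrays. In sorted cells it read -5.67, -3.50 and -6.36 in WT and -4.13, -5.31 and -4.78 in Fgf5-/-, and was well above background only in WT replicate 2 and Fgf5-/- replicate 1. Its cultured and sorted values did not overlap. Since most sorted arrays read it near background and it was kept for its cultured arrays alone, the size of the difference is not measured and no test is given.

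Sox3 encodes an HMG-box factor that progenitors need in order to advance. Its probe read 5.99 and 5.89 without FGF5 and 5.67 and 5.40 with FGF5, against 5.24, 5.05 and 5.07 in WT and 4.71, 5.27 and 5.25 in Fgf5-/-. The lowest cultured array, at 5.40, was still above the highest sorted array, at 5.27. The difference was 1.56-fold or 0.64 on the log2 scale (standard error 0.14; limma, adjusted p = 0.00352), of which 0.38 remained relative to the median of all probes, and 0.35 to 0.57 under the other scalings. A larger difference in either direction was found for 54.2% of the probes, so the gap of Sox3 was of ordinary size for this contrast. When only GS cells with FGF5 were set against WT cells it was 0.42 (limma, adjusted p = 0.0629).

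Kit encodes the receptor tyrosine kinase for stem cell factor and marks differentiating spermatogonia. It read -0.80 and -0.94 without FGF5, -0.87 and -1.09 with FGF5, 2.13, 1.78 and 1.60 in WT, and 1.72, 1.90 and 1.96 in Fgf5-/-. All 6 sorted arrays were far above all 4 cultured ones, and the genotypes and the culture conditions overlapped. The probe is printed in 2 spots, and these differed by at most 0.12 on any array. Before scaling, the scanner signal was 300.1 to 374 units in culture and 2417 to 4702 units in sorted cells. Kit was thus 6.84-fold lower in culture, a log2 difference of -2.77 (standard error 0.13; limma, adjusted p = 1.83e-06), or -3.03 relative to the median of all probes and -3.03 to -2.85 over the scalings. A larger difference was found for 2.88% of the tested probes.

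Other cell types of the testis can also contribute to a Kit probe. RefSeq lists Tr-kit, the short form of spermatids, among the synonyms of Kit, and Leydig cells and mast cells carry the receptor. The summed signal of 7 spermatid markers, as a linear multiple of the 75th percentile, was 1.06 to 1.27 in culture and 4.61 to 16.1 in sorted cells, where 5 of the 7 were well above background and Acrv1 and Odf1 were so on no array. Tnp1, which encodes a transition protein of spermatid chromatin, read 1.45 to 2.72 in sorted cells and averaged -2.26 in culture. Of the 5 spermatid markers tested 4 passed the threshold as lower in culture (25.7% of all probes) and 1 as higher (41.9%). Tnp2, counted as lower, was kept for its sorted arrays alone, with 1 of 4 cultured arrays well above background. The higher 1 was Acr, the acrosomal protease acrosin, at 1.33 (limma, adjusted p = 3.3e-05). Within each genotype, the arrays had the same order by Kit as by these markers, with sums of 8.53, 8.05 and 6.39 in WT replicates 1 to 3 and of 4.61, 8.55 and 16.1 in Fgf5-/-. That order was not particular to them. In Fgf5-/-, the brighter Neurog3 probe, Sohlh1, Sohlh2 and Dmrt1 had it too, as had the sums of 10 Sertoli cell markers, 6.58, 8.98 and 9.38. In WT, Dmrtb1 had the order of Kit. The sum of 6 Leydig cell markers moved the other way, with 5.01 to 6.66 in culture and 0.62 to 1.96 in sorted cells. It followed mainly Cyp17a1, whose log2 signal averaged 2.49 in culture and 0.19 in sorted cells. Star was the only other marker well above background on all arrays and was dim, at -2.97 and -3.67. Cyp11a1 and Lhcgr were well above background on no array. Of 5 mast cell markers, Cpa3, Mcpt4 and Ms4a2 were well above background on no array, and the sums overlapped between the materials. Only Tpsb2 was well above background on all arrays, and the mast cell sum followed mainly that gene. The part of these cells in the Kit difference was not tested.

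**Figure D2:**
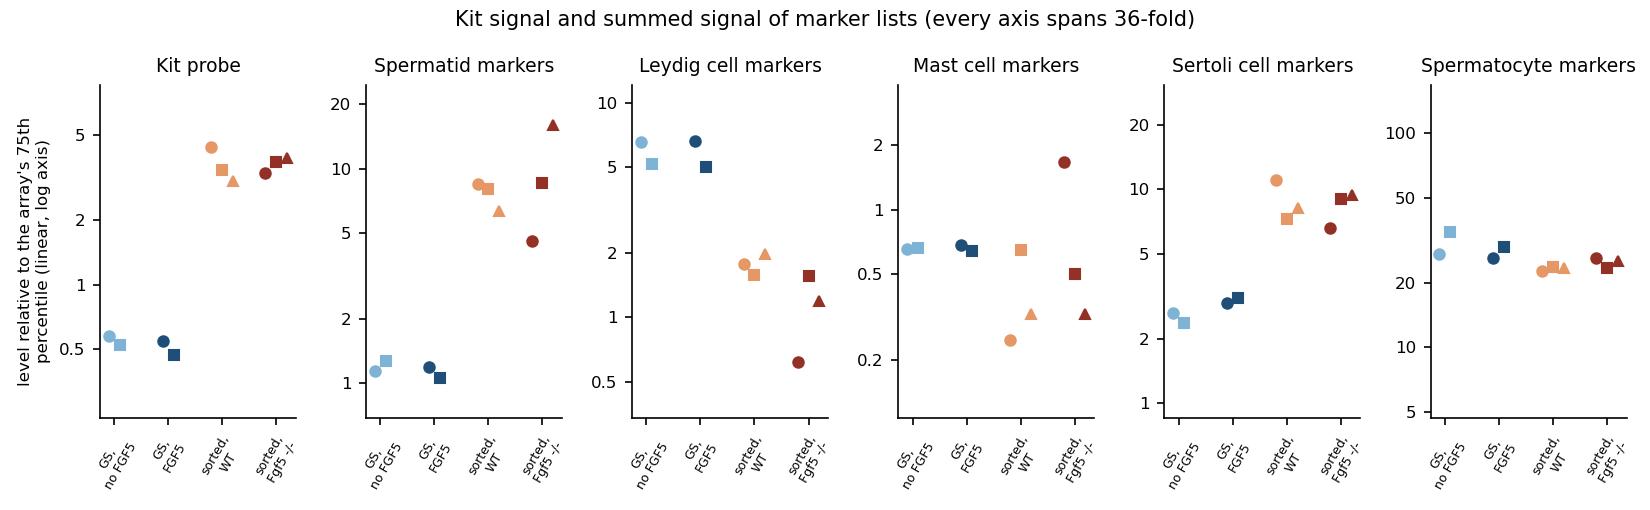
Linear signal of the Kit probe and summed linear signal of 5 marker lists, relative to each array's 75th percentile (y axes logarithmic, each spanning 36-fold), in the 4 groups (x axis). Circles, squares and triangles are replicates 1, 2 and 3. The spermatid sum, like Kit, is higher on all 6 sorted arrays than on the 4 cultured ones. The Leydig cell sum, which follows mainly Cyp17a1, is lower, and the mast cell sum, which follows mainly Tpsb2, overlaps.

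The remaining 4 genes did not pass the threshold between culture and testis, and all of their 95% intervals held 0. Sohlh1 and Sohlh2 encode bHLH factors that act together and on which Kit expression depends in spermatogonia. Sohlh1 read 5.83 and 6.15 without FGF5, 5.68 and 5.92 with FGF5, 5.99, 5.88 and 5.93 in WT, and 5.69, 6.02 and 6.09 in Fgf5-/-. Sohlh2 read 2.39 and 2.47 without FGF5, 2.43 and 2.34 with FGF5, 2.35, 2.30 and 2.43 in WT, and 1.96, 2.34 and 2.36 in Fgf5-/-. The cultured and sorted arrays of both genes overlapped. Cultured minus sorted cells gave -0.04 for Sohlh1 (95% interval -0.32 to 0.24) and 0.12 for Sohlh2 (-0.13 to 0.37), the upper end of the latter being 1.29-fold, whereas Kit differed 6.84-fold on the same arrays. Quantile normalization and a percentile taken over bright probes raised Sohlh2 past the threshold, at 0.26 and 0.25 (limma, adjusted p = 0.0309 and 0.0361).

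Dmrt1 encodes a DM domain factor that restrains meiosis in spermatogonia and is also made in Sertoli cells. It read 3.27 and 3.24 without FGF5, 3.15 and 2.84 with FGF5, 3.21, 3.30 and 3.33 in WT, and 3.17, 3.30 and 3.37 in Fgf5-/-. The arrays of the materials overlapped, and the difference was -0.16 (95% interval -0.38 to 0.07; limma, adjusted p = 0.193). The summed signal of 10 Sertoli cell markers was 2.38 to 3.09 in culture and 6.58 to 11.1 in sorted cells, with 6 to 8 and 7 to 8 of them well above background, while Amh and Fshr were so on no array. This gap followed mainly Clu, at -4.23, and Rhox5, at -2.33. Of the 8 tested, 6 passed as lower in culture (25.7% of all probes) and 1 as higher (41.9%). The higher 1 was Sox9, at 2.03, with 3 of 6 sorted arrays well above background. Wt1, at -0.23, did not pass. Cldn11, counted as lower, was well above background on 1 of 4 cultured arrays. The part of Sertoli cells in the Dmrt1 value was not tested. Dmrtb1 encodes a related DM domain factor of differentiating spermatogonia and gave a dim signal, although all 10 arrays had it well above background. It read -2.87 and -2.26 without FGF5, -2.68 and -2.07 with FGF5, -1.82, -2.15 and -2.43 in WT, and -2.58, -2.42 and -2.70 in Fgf5-/-. The difference between the materials was -0.12 (95% interval -0.55 to 0.32; limma, adjusted p = 0.600), and the arrays overlapped.

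FGF5 for 24 hr did not move any of the 8 probes past the threshold in GS cells. An adjusted p of 0.05 in limma was passed by 0% of 34612 probes, and 2.55% had an unadjusted p under 0.05. With FGF5, 7 of the 8 probes were lower and Dmrtb1 was higher, and the differences ran from -0.49 to 0.19 on the log2 scale. Both arrays with FGF5 were below both arrays without it for 3 probes, the dimmer Neurog3 probe, Sox3 and Dmrt1. Such a separation in either direction was found for 22.7% of all tested probes, and with 8 probes nothing is read from this count.

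Of the progenitor genes, Sox3 differed by -0.40 with FGF5, or 0.76 of the signal without it (95% interval of the ratio 0.54 to 1.05; limma, adjusted p = 0.9999). The dimmer Neurog3 probe differed by -0.49 and was the 1 probe of the 8 with an unadjusted p under 0.05 (limma, adjusted p = 0.9999). The brighter Neurog3 probe overlapped between the conditions, with a difference of -0.28 (95% interval -1.05 to 0.49). That value rested on replicate 2 with FGF5, at 5.14 against 5.73 to 5.89 on the other cultured arrays, and was 0.09 without it. The same array was also the lowest of the 4 cultured arrays for the dimmer Neurog3 probe, Sox3, Kit, Sohlh2 and Dmrt1.

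Among the differentiation genes, the differences with FGF5 were -0.11 for Kit (95% interval -0.58 to 0.35), -0.19 for Sohlh1, -0.04 for Sohlh2, -0.26 for Dmrt1 and 0.19 for Dmrtb1 (95% interval -0.67 to 1.05). Arrays of the 2 conditions overlapped for all of these except Dmrt1. The intervals of Kit, Sohlh1, Sohlh2 and Dmrt1 leave out a 2-fold change in either direction, and the interval of Dmrtb1 reaches 2.06-fold higher. Without replicate 2 with FGF5 or replicate 1 without it, the value of Dmrtb1 changed sign, to -0.12 in each case. Both arrays of replicate 2 read higher for Dmrtb1 than both of replicate 1, so leaving out 1 array mixes FGF5 with the replicate number. Between arrays of equal number, Dmrtb1 was 0.19 higher with FGF5 in replicate 1 and 0.19 higher in replicate 2. Read in this way, Sox3, Kit, Sohlh1, Dmrt1 and the dimmer Neurog3 probe were lower with FGF5 in both replicates. The brighter Neurog3 probe and Sohlh2 changed sign between them. The sums of 14 markers of undifferentiated spermatogonia were 97.1 and 108 with FGF5 and 89.1 and 89.5 without it on the same arrays. The rise followed mainly Etv5, which averaged 3.68 with FGF5 and -0.24 without it, while Zbtb16 averaged 5.78 and 5.99. Of the 13 tested, 9 were higher and 4 lower with FGF5, and 0 passed the threshold. The part of that shift in the lower values was not tested.

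**Figure D3:**
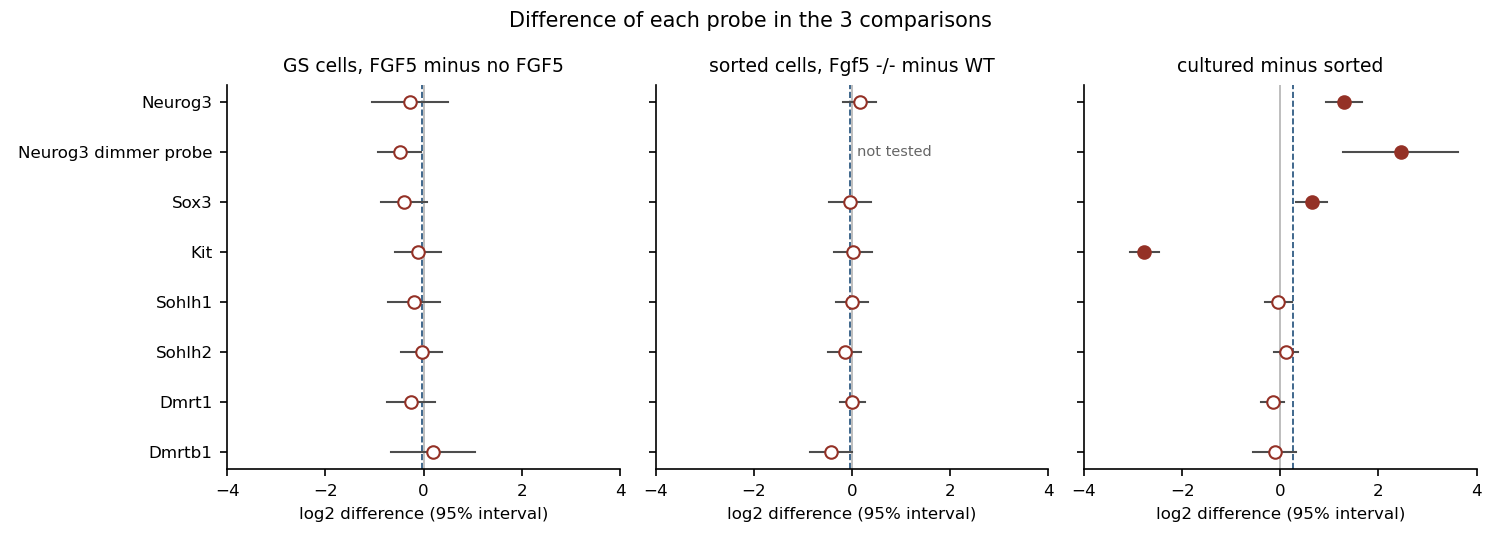
Log2 difference (x axis) with its 95% interval for each probe (y axis) in the 3 comparisons. Filled circles passed an adjusted p of 0.05 in limma, the solid line marks 0 and the dashed line the median of all tested probes (-0.03, -0.03 and 0.26 from left to right). The dimmer Neurog3 probe was not tested between genotypes. On the right, the intervals of Kit, Sox3 and the brighter Neurog3 probe leave out 0. The dimmer Neurog3 probe was kept there for its cultured arrays alone, so its interval and filled circle are not read as a test.

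In sorted GFRα1+ cells, the loss of Fgf5 went with no difference past the threshold in the 7 probes that could be tested. The dimmer Neurog3 probe was left out because only 1 of 3 arrays of either genotype had it well above background. An adjusted p of 0.05 in limma was passed by 0% of 30285 probes, and 6.79% had an unadjusted p under 0.05. Arrays of the 2 genotypes overlapped for all 7 probes, while 16.2% of all tested probes did not overlap. Of the 7, 4 were lower and 3 higher in Fgf5-/-.

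Dmrtb1 had the largest difference of the 7, with -2.14 ± 0.30 (SD, n = 3) in WT and -2.57 ± 0.15 (SD, n = 3) in Fgf5-/-. The difference was -0.43, or 0.74 of the WT signal (95% interval of the ratio 0.55 to 0.996; limma, adjusted p = 0.728), and it was the 1 probe of the 7 with an unadjusted p under 0.05. WT replicate 3, at -2.43, lay within the Fgf5-/- arrays, and 9.09% of all tested probes differed by more. Neurog3 was 0.16 higher in Fgf5-/- (95% interval -0.18 to 0.49), and Sohlh2 differed by -0.14 (95% interval -0.48 to 0.19). The values of Sox3, Kit, Sohlh1 and Dmrt1 lay between -0.04 and 0.02, and their signs changed with the scaling or with the array left out. The widest of their 95% intervals was that of Sox3, with a ratio of 0.72 to 1.31.

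Replicate 1 of Fgf5-/- was the lowest of the 6 sorted arrays for Sox3, Sohlh1, Sohlh2 and Dmrt1. For Sox3 it read 4.71 against 5.05 to 5.27 on the others, and for Sohlh2 1.96 against 2.30 to 2.43. Without that array the difference of Sox3 was 0.14 and that of Sohlh1 0.12, both higher in Fgf5-/-, and no member passed the threshold. This array also had the highest share of probes well above background, 65.9%, and the lowest sums of spermatid, Leydig, Sertoli, macrophage and endothelial cell markers among the sorted arrays. Its sum of 7 germ cell markers was 141 against 181 to 186 on the others. Its sum of mast cell markers, which follows mainly Tpsb2, was the highest, 1.67 against 0.247 to 0.651. The part of these in its values was not tested.

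Genes that work with these regulators were read from 4 lists, by the brightest probe of each gene. Between culture and sorted cells, 39 of the 55 tested genes of these lists passed the threshold, near the 67.7% of all probes, so the counts that follow describe the lists and set none of them apart. Of 12 tested bHLH partners and regulators 9 passed, 3 higher and 6 lower in culture (41.9% and 25.7% of all probes), with a median difference of -0.32 against 0.26 for all probes. Hes1, a target of Notch signaling, was 1.75 higher, and Id1, which binds bHLH factors and keeps them from DNA, was 1.17 higher. Tal1 was not well above background on any cultured array and was at least 2.86-fold lower there. The bHLH gene nearest to Neurog3 by name, Neurog1, averaged -3.96 in culture and -4.87 in sorted cells, where only 3 of 6 arrays had it well above background, so that its count among the higher genes rests on the filter as well. The same holds for Sox2. In the DM domain and SOX list 4 of 13 were higher and 4 lower, with a median of -0.18. Among the lower was Dmrta2, well above background on no cultured array and at least 1.79-fold lower there. The counts of Dmrta2 and Tal1 among the lower genes thus rest on the filter too. Dmrt2 differed most at -3.03, followed by Dmrtc1a at 2.61 and Sox18 at -1.90, the last of these well above background on 3 of 4 cultured arrays.

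Of 14 tested genes of KIT signaling, 2 were higher and 9 lower in culture, with a median of -0.40. Pik3r1, a regulatory subunit of PI3-kinase, differed by -2.83, Shc1, an adaptor, by -0.99 and Socs1, an inhibitor of cytokine receptors, by -0.90, all lower in culture. Among 16 tested genes of the differentiation programme 5 were higher and 6 lower, with a median of -0.10. Stra8, which retinoic acid induces in differentiating spermatogonia, fell by 3.14 in culture (limma, adjusted p = 1.04e-06). The cyclin genes Ccna2 and Ccnd2 fell by 3.01 and 2.65. Kit and Stra8 were thus both lower in culture, whereas Sohlh1, Sohlh2 and Dmrtb1 were not shown to differ.

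**Figure D4:**
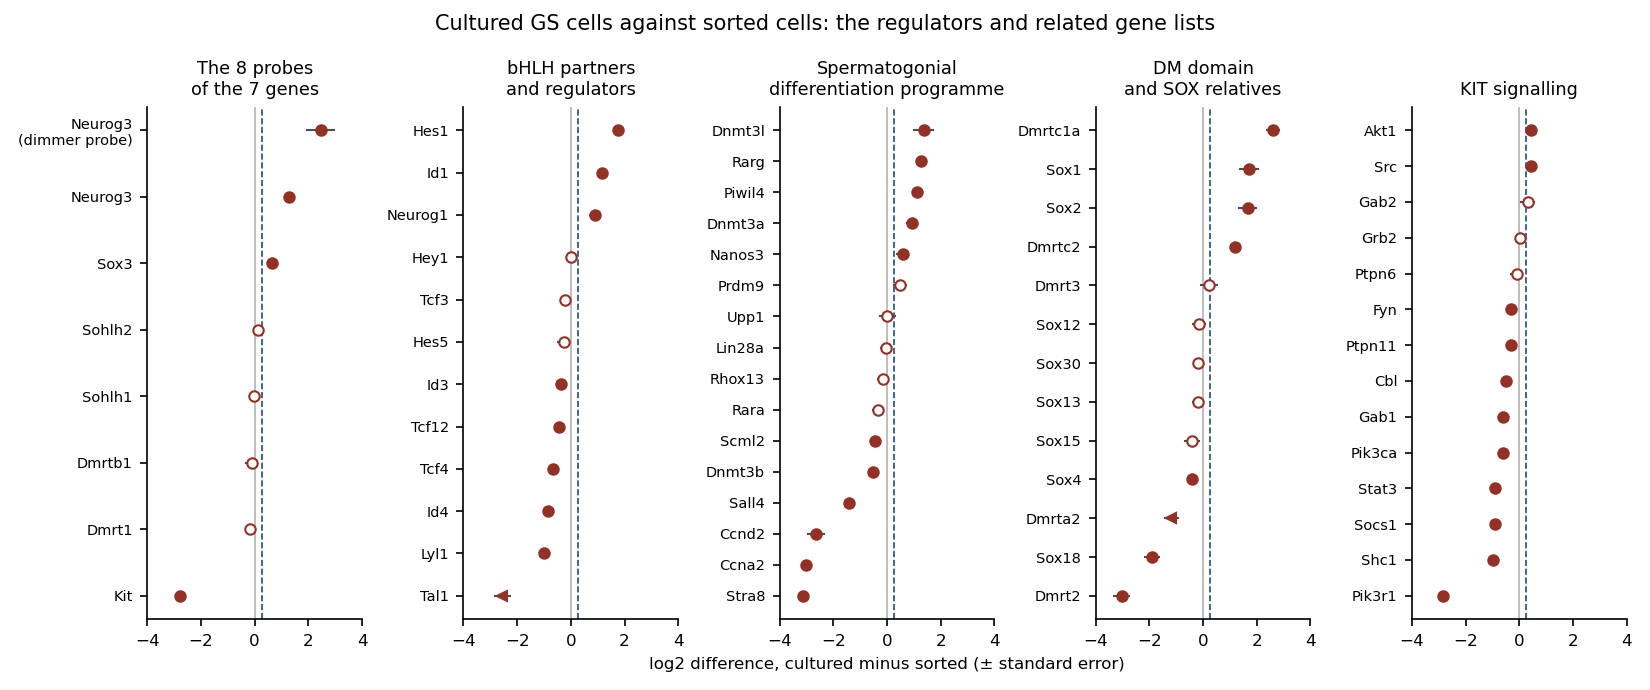
Log2 difference between cultured and sorted cells (x axis) with its standard error for the 8 probes and for the tested genes of 4 related lists (y axis). Filled symbols passed an adjusted p of 0.05 in limma, left-pointing triangles were not well above background on any array of 1 material, so that the size of their difference is not measured, and the dashed line is the median of all tested probes, 0.26. Stra8, Dmrt2, Ccna2, Pik3r1 and Kit lie lowest, and Dmrtc1a and the dimmer Neurog3 probe lie highest. The dimmer probe was well above background on 2 of 6 sorted arrays, so its filled symbol is not read as a test.

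With FGF5, 0 of the tested genes of these 4 lists passed the threshold in limma. The list medians were 0.05 for the bHLH genes, -0.15 for the differentiation programme, 0.08 for the DM domain and SOX genes and 0.08 for KIT signaling, against -0.03 for all probes. In the differentiation programme 12 of 16 genes were lower with FGF5, among them Stra8 at -0.42 and Upp1 at -0.59, while Ccnd2 was 2.004 higher. The arrays of Upp1 overlapped between the conditions. As all of these genes were read on the same 4 arrays, nothing is read from the 12 of 16. Cultures with and without FGF5 were fully separated in 18 of 53 genes (34.0%, against 22.7% of all probes), 14 of them higher with FGF5, and with the same 4 arrays behind each gene nothing is read from this count. The largest among the 18 were Ccnd2, Dmrt2 at 1.70, Sox18 at 1.36 (well above background on 1 of 2 arrays without FGF5), Sox2 at 1.16 and, of the bHLH genes, Id4 at 0.91. Between genotypes 0 genes of the lists passed either, with medians between -0.12 for the bHLH genes and 0.00059 for KIT signaling. The genotypes did not overlap for 10 of 52 genes (19.2%, against 16.2% of all probes). In Fgf5-/- these were lower for Rhox13, at -0.43, Id3, at -0.40, Stat3, at -0.34, Hes1, at -0.33, Lyl1, at -0.23, Shc1, at -0.20, Sox18, at -0.18, Id1, at -0.16, and Tcf3, at -0.12, and higher for Piwil4, at 0.35.

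Patterns over the 10 arrays were compared with those of 14707 other genes well above background on all arrays, each profile centered on its own mean, by the root mean square difference. Neurog3 was nearest to Aldh4a1 and Smoc1, both with a root mean square difference of 0.12 log2 units, where the profile of Neurog3 itself had a root mean square spread of 0.67. Sox3 was nearest to 4933412E12Rik, with 0.0851, and Zbtb45, with 0.0866, and a spread of 0.38. The profiles of Sohlh1, Sohlh2 and Dmrt1 had spreads of only 0.14 to 0.15, so that many flat genes lie near them. These values describe 10 arrays that fall into 2 materials, and a gene that differs between the materials by a like amount is near for that reason.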

How the data were processed

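The authors deposited scanner output for each array, from which the background-subtracted spot intensity (the processed signal on a linear scale) and the flags for background and outliers were used. They also deposited a table of log2 values, which differ from the log2 signals computed here by 1 constant per array. The labels name Feature Extraction 10.7.3.1 and the file headers 10.7.1.1. Following the methods, signals were floored at 1, log2 transformed and shifted by the 75th percentile of the array. Outlier spots (117 to 205 per array) were left out, 0 spots were saturated, and the spots of a probe were averaged. Sorted-cell files carry no gene names, and names were taken from the identical design of the cultured ones.

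Probes that all arrays of a group had well above background were tested with limma 3.58.1 in R 4.3.3, two-sided, with Benjamini-Hochberg adjustment over all probes tested. Culture (2 against 2) and genotype (3 against 3) were fitted apart. Cultured against sorted used all 10 arrays and 4 group means. Precision is limited by the number of arrays. The fits were checked on simulated data. Alternatives were normexp (offset 50), quantile normalization, the authors' table, the percentile over bright probes, a floor of 16, outlier spots kept, other filters on dim probes, an intensity trend, the replicate block, each culture condition set against WT sorted cells only, and each array left out.

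The members, gene lists and marker lists were chosen with earlier results of these data known. All member probes are named, with up to 3 genes of a list by the size of their difference. The genes nearest to Kit in profile are not reported here. Other genes named (Neurog1, marker genes at background, Id3 and others whose arrays did not overlap) were chosen after their values were seen. A bound ("at least") is the mean of the brighter material over the higher of the probe's own signal and the lowest signal well above background on each array.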

Additional observations from a re-analysis of the deposited data

Results flagged for a closer look

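Sohlh2 in replicate 1 of the Fgf5-/- sorted cells was far from the other sorted arrays. It read 1.96 where the nearest of the other 5 sorted arrays read 2.30, a gap of 0.72 of the whole range of the 6. Both genotypes were pooled for this, and with 16 sets of 4 or 6 arrays examined, about 1 in 20 of them is marked by chance. The gap of Sox3 on the same array, 0.60 of the range, was not marked.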

How the results depend on the processing

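The differences of Kit and of the brighter Neurog3 probe between cultured and sorted cells kept their direction and stayed past the threshold under all 22 alternatives, from -2.83 to -2.58 for Kit and from 1.102 to 1.51 for Neurog3. Sox3 did so under 21 of them, the exception being GS cells with FGF5 against WT cells only. No member passed in the other comparisons under any alternative.

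Small values changed sign. Between genotypes, Dmrt1 was -0.040 with normexp and -0.0084 in the authors' table, and Sox3 and Sohlh1 were 0.12 and 0.20 with quantile normalization and 0.017 and 0.056 with the percentile over bright probes. Between cultured and sorted cells, Dmrtb1 was 0.082 with normexp and 0.016 with that percentile, and Sohlh1 was 0.097 with that percentile and 0.058 for GS cells without FGF5 against WT cells. With 1 array left out, the differences with FGF5 ran from -0.65 to 0.093 for Neurog3, from -0.085 to 0.0026 for Sohlh2 and from -0.12 to 0.50 for Dmrtb1. In the same way the differences between genotypes ran from -0.14 to 0.14 for Sox3, from -0.092 to 0.17 for Kit, from -0.079 to 0.12 for Sohlh1 and from -0.043 to 0.058 for Dmrt1, and those between materials from -0.12 to 0.043 for Sohlh1 and from -0.27 to 0.037 for Dmrtb1. The count of probes called between genotypes then ran from 0 to 6, with 6 without Fgf5-/- replicate 1. Where 1 array of a culture condition remained, it was assumed to vary like the others.

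With the replicate number as a block, 0 probes passed with FGF5 (smallest adjusted p = 0.196), 0 between genotypes and 22034 between materials, where Sohlh1 was 0.00042. Equally numbered cultures deviated together (r = 0.636 across probes, each nearest to its own number), and sorted samples did not (r from -0.42 to -0.15). With no text stating a shared culture, the numbers were not taken as pairs.

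The share of called probes that were higher in culture, 62.0%, was 55.4% with quantile normalization and 68.6% with the percentile over bright probes. With 2 arrays per condition in culture, the 95% intervals of Neurog3 and Dmrtb1 hold a 2-fold difference. The causes of these changes were not tested.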

Other observations

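Markers of later germ cells did not move as 1 group between cultured and sorted cells. The counts below stand beside 41.9% of all probes higher in culture and 25.7% lower. Of 8 spermatocyte markers 3 were higher in culture, 4 were lower and Sycp3, at 0.0045 on the log2 scale, did not pass the threshold in limma. Meiob, which encodes a DNA-binding protein of meiotic recombination, was 2.05 higher in culture (adjusted p = 7.59e-05), while Dmc1, the meiotic recombinase, fell by 2.06 (adjusted p = 4.64e-06). Spo11 fell by 2.41, and was well above background on 2 of 4 cultured arrays. Of 7 germ cell markers 4 were higher in culture and 0 lower, with Dppa3 at 5.30, the largest difference of that list (adjusted p = 5.32e-08), and Ddx4, at -0.10, not past the threshold.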
